A study of Homo sapiens with 6 samples.

Results

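Genes listed as ETV factors and other output genes of growth factor signalling were examined in A375 melanoma cells. The list makes up 7 of the 28395 genes in the deposited table. The listed genes were found by their symbols, and each symbol matched 1 gene. ETV1, ETV4 and ETV5 encode the PEA3-type transcription factors of the ETS family, and ELK3 encodes another ETS factor. EPHA2 and EPHA4 encode receptor tyrosine kinases, and PHLDA1 encodes a protein with a pleckstrin homology-like domain.

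In the ERK pathway a signal passes from RAS through RAF and MEK to the kinase ERK, which reaches the nucleus and alters the activity of transcription factors. Genes whose mRNA follows ERK activity are used as a readout of the pathway, and the PEA3-type factors are among the best known of them. A375 is an established human melanoma line with an activating BRAF mutation, and ERK signalling in such cells is known to run without growth factors. Whether these transcripts follow ERK in the present cultures was not measured.

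Control cells received 0.01% olive oil (OLO). Treated cells received ozonated olive oil (OZO) at the same 0.01%, and both were cultured for 6 h. Each of the 2 groups had 3 libraries, all from wild-type A375 cells as labelled. Nothing in the labels says whether the libraries came from separate cultures. A figure legend of the paper gives 3 independent experiments for its A375 transcriptome values. The value examined here is the authors' mean level of each gene over all 6 libraries, which pools OLO and OZO. It is given as log2 CPM, the logarithm of a count scaled to library size, where 1 CPM equals 18.4 reads per library at the depth given below. Values of single libraries and the difference between OZO and OLO were not analysed here, so the levels below describe A375 cells in both oils together and carry no estimate of the spread between cultures.

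The depth behind these levels was recovered from the lowest values of the table and came to a geometric mean of 18409903 counted fragments per library after the authors' scaling. At this depth 21383 genes had a read and 13773 averaged at least 10 reads in each library. Among lineage markers, SOX10, a transcription factor of the neural crest and melanocytes, was at 49.9 CPM and MITF, the master regulator of pigment cells, at 27.1 CPM. The pigment enzyme gene TYR had no read, which allows a level of up to 0.0272 CPM at 3 counts over all libraries, and PMEL, a melanosome protein gene, was at 0.312 CPM. The other melanocyte markers S100B and MLANA were at 2.77 and 1.99 CPM. Of the genes known from dedifferentiated melanoma, AXL, a receptor kinase, was at 267.0 CPM, and NGFR and EGFR were at 37.8 and 28.3 CPM. Of the markers of other cell types, PTPRC of leukocytes and KRT5 of keratinocytes were at 0.0584 and 0.0846 CPM, and KRT14 of keratinocytes was the highest at 4.21 CPM. The 4 pigment genes TYR, PMEL, DCT and TYRP1 were each below 1 CPM, and MLANA and S100B were below KRT14 in CPM. Per kilobase of the longest transcript MLANA and S100B were at −0.21 and 1.33, against 1.37 for KRT14, on the log2 scale. Per kilobase of coding sequence MLANA and S100B were above KRT14, at 2.51 and 3.31 against 1.58. SOX10 and MITF were the highest of the melanocyte markers by each of these measures.

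All 7 members were read, each with a mean above 10 reads per library. Of these, 6 lay above the median level of 4.47 log2 CPM among the 13773 genes with at least 10 reads, and EPHA4 lay below it. The highest, PHLDA1, had 39.9 times the CPM of the lowest, EPHA4. The other 5 members spanned 6.23 to 7.32 log2 CPM.

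**Figure D1:**
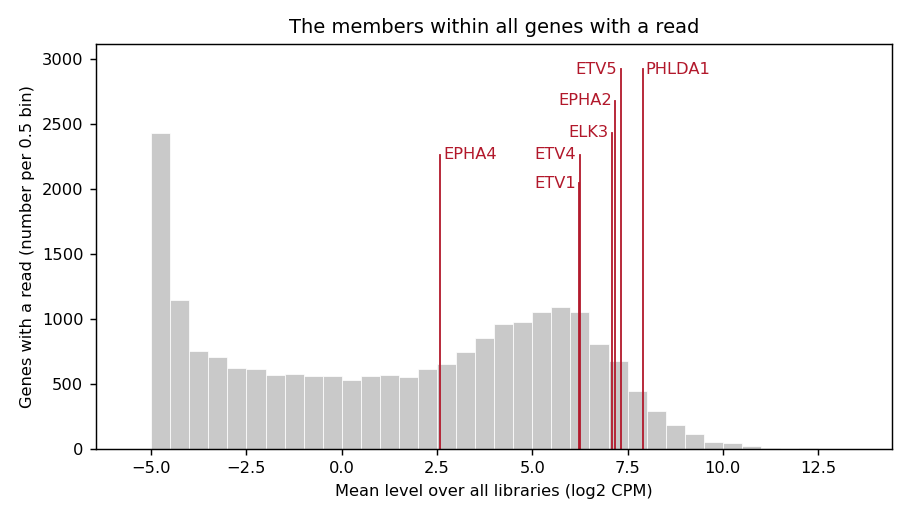
Distribution of the mean level over all libraries (horizontal axis, log2 CPM) for the 21383 genes with a read (grey bars, number of genes per bin), with a red line at the level of each member. The lines of 6 members stand in the right shoulder of the distribution between 6.23 and 7.90 log2 CPM, and EPHA4 stands apart at 2.59.

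The PEA3-type factors were all expressed. ETV5 (NCBI Gene 2119, chromosome 3, 186046314 to 186110318, minus strand, hg38) was at 7.32 log2 CPM. That corresponds to 159.6 CPM, from an implied 2939 reads per library with a 95% Poisson interval of 2896 to 2983. This interval, like the others given here, covers counting error only. ETV4 (Gene 2118, chromosome 17, 43527844 to 43579620, minus strand) was at 6.24 log2 CPM, or 75.5 CPM, from 1391 implied reads. ETV1 (Gene 2115, chromosome 7, 13891229 to 13991425, minus strand) was at 6.23 log2 CPM, or 74.8 CPM, from 1378 implied reads. In CPM the pair ETV4 and ETV1 could not be told apart by counting error, as their difference was 0.013 on the log2 scale with a 95% interval of −0.031 to 0.057.

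Long transcripts collect more reads than short ones, so the genes were also compared after division by transcript length. The longest annotated transcript was 2335 bases for ETV4, 4082 for ETV5 and 6459 for ETV1, and each is also the canonical transcript of its gene. Per kilobase of that length, ETV5 was at 5.29, ETV4 at 5.02 and ETV1 at 3.53 log2 CPM per kilobase. On this scale ETV4 was 2.79 times as high as ETV1, although both had nearly the same number of reads. The coding parts of the ETV mRNAs are of similar length, 1452 bases for ETV4 and 1473 for ETV1, and per kilobase of coding length ETV4 was 1.02 times as high as ETV1, with an interval of the log2 difference that included 0. ETV5 was at 6.71 log2 CPM per kilobase of coding length. The gap between ETV4 and ETV1 thus depended on the length used, and the isoforms that A375 cells use were not measured. The level divided by coding length is still that of the whole gene. Genes with long untranslated parts therefore come out higher on the coding scale, here and below.

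ELK3 (Gene 2004, chromosome 12, 96194375 to 96269824, plus strand), a ternary complex factor that binds DNA together with the serum response factor and that is known to switch from repressor to activator when ERK phosphorylates it, was at 7.09 log2 CPM. This corresponds to 136.1 CPM and 2506 implied reads, with an interval of 2466 to 2546. Per kilobase of its longest transcript ELK3 was at 5.02 log2 CPM per kilobase and did not differ from ETV4 beyond counting error, with a log2 difference of 0.0021 and an interval of −0.036 to 0.041.

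PHLDA1 (Gene 22822, chromosome 12, 76025447 to 76031776, minus strand) had the highest level of the 7 genes, at 7.90 log2 CPM, or 238.4 CPM. Its implied 4389 reads had an interval of 4336 to 4442, and 96.2% of the genes with a read were lower. Per kilobase of the longest transcript PHLDA1 was at 5.33 log2 CPM per kilobase, 1.03 times as high as ETV5. Per kilobase of coding length the lead was larger, and PHLDA1 was 1.78 times as high as ELK3, which came second on that scale. The gene has 2 exons, and its coding part of 1203 bases is a small part of the 5913-base transcript. That small coding part raises its level per coding length.

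The ephrin receptor genes were far apart. EPHA2 (Gene 1969, chromosome 1, 16124337 to 16156069, minus strand) was at 7.17 log2 CPM, or 143.6 CPM, from 2643 implied reads with an interval of 2602 to 2685. EPHA4 (Gene 2043, chromosome 2, 221418027 to 221574202, minus strand) was at 2.59 log2 CPM, or 5.98 CPM, from 110.0 implied reads with an interval of 101.8 to 118.7. Of the genes with a read, 53.5% were lower than EPHA4 and 92.6% were lower than EPHA2. Per kilobase of the longest transcript they were at 5.19 and −0.08 log2 CPM per kilobase. Their coding lengths are almost equal, 2928 bases for EPHA2 and 2958 for EPHA4, and per kilobase of coding length EPHA2 was 24.2 times as high as EPHA4.

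**Figure D2:**
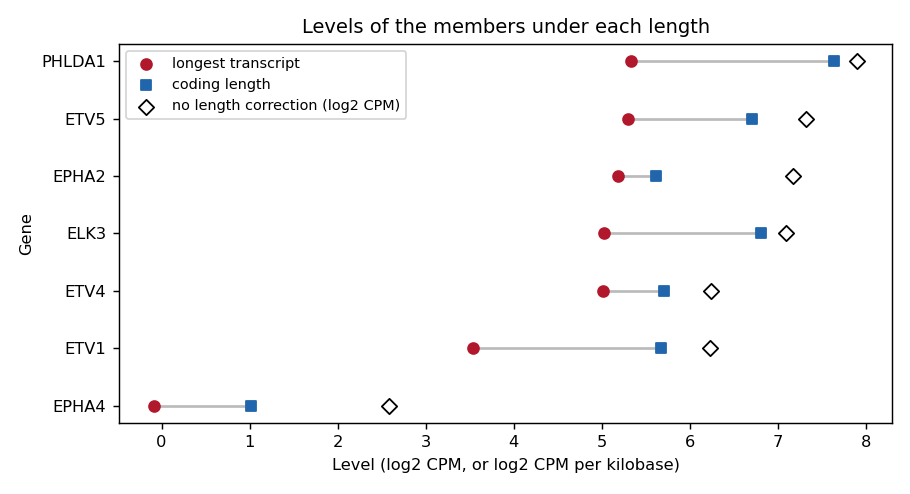
Level of each member (one row per gene) without length correction (open diamonds, log2 CPM), per kilobase of the longest transcript (red circles) and per kilobase of coding length (blue squares, both in log2 CPM per kilobase). PHLDA1 is highest and EPHA4 lowest by all 3 measures, while EPHA2 moves from the third place per transcript length to the sixth per coding length.

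The order of the members per kilobase of the longest transcript was PHLDA1, ETV5, EPHA2, ELK3, ETV4, ETV1 and EPHA4. Among neighbours in this order, ELK3 and ETV4 were within counting error of each other. The first 5 genes were close together, between 5.02 and 5.33 log2 CPM per kilobase, and since the spread between libraries was not analysed here, their places are a description of the pooled values and no difference among them was tested. By coding length the order became PHLDA1, ELK3, ETV5, ETV4, ETV1, EPHA2 and EPHA4. EPHA4 was last by either length, 12.3-fold below the next gene by transcript length and 24.2-fold by coding length.

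The ETS family was then examined as a whole, because its factors share a DNA-binding domain and recognise similar sites. Of the 28 listed family members, 25 had a read and 16 had a mean of at least 10 reads. ERG, ELF5 and SPIC had no read. Per kilobase of the longest transcript, ETV5, ELK3 and ETV4 took the first 3 places, followed by ETV3, an ETS repressor, at 4.81 and by ELK1, another ternary complex factor, at 4.75 log2 CPM per kilobase. ETV1 was in the eleventh place of the 28. ETV5, ELK3, ETV4 and ETV1 together made up 38.2% of the family's summed CPM per kilobase, with 12.9% from ETV5, 10.7% each from ELK3 and ETV4 and 3.84% from ETV1. By coding length the places changed. ELK4 at 7.67 log2 CPM per kilobase of coding length then led the family, ELK3 and ETV5 followed, and ETV4 took the eighth place, behind ETV3, ETS1, GABPA and ELK1. The sum of the 4 was 32.3% by coding length, with 11.3% from ELK3, 10.6% from ETV5, 5.27% from ETV4 and 5.15% from ETV1.

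**Figure D3:**
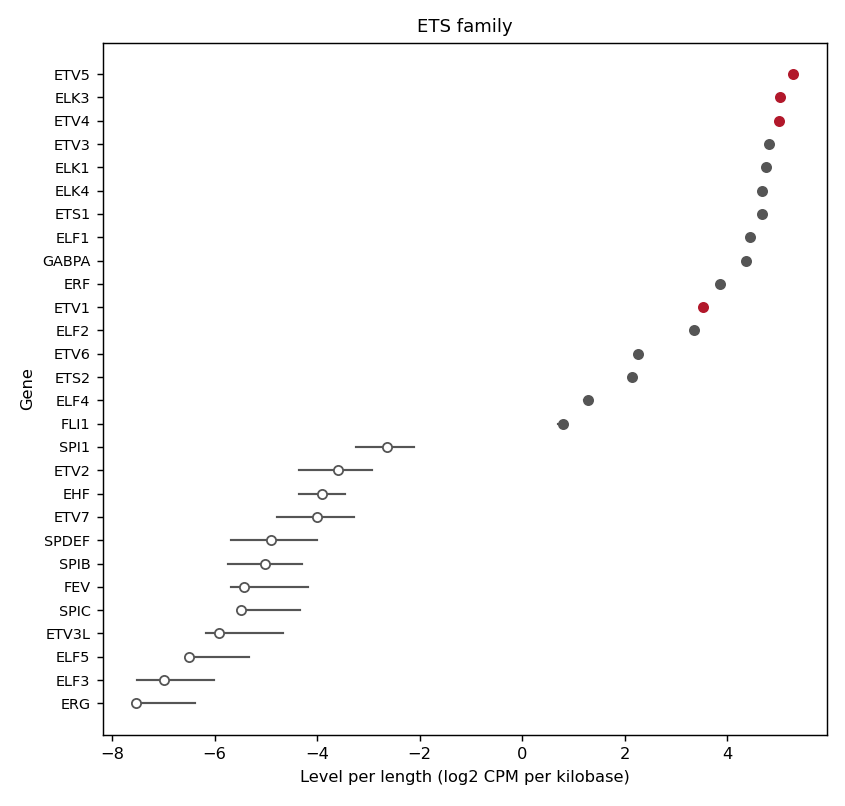
Level per kilobase of the longest transcript (horizontal axis, log2 CPM per kilobase) for the 28 ETS genes, with members in red, other genes in grey, open symbols for genes with a mean under 10 reads, and lines for the 95% counting interval. ETV5, ELK3 and ETV4 stand at the top, and the genes with under 10 reads lie below −2.

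ELK3 acts with the serum response factor, and the other genes of that group were measured beside it. ELK3 was 1.21 times as high as ELK1 per kilobase of the longest transcript, and ELK4 was at 4.68 log2 CPM per kilobase. SRF itself was at 3.30, and its actin-regulated coactivator genes MRTFB and MRTFA were at 2.51 and 1.55 log2 CPM per kilobase. All 3 ternary complex factor genes were therefore above SRF, and this held by coding length, where ELK4, ELK3 and ELK1 were at 7.67, 6.80 and 5.91 against 4.77 for SRF.

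The PEA3-type factors are known to be held back by the repressor capicua, the product of CIC, which acts with ATXN1 and ATXN1L, and to be degraded with the help of the ubiquitin ligase genes COP1 and DET1. All 5 were expressed with at least 10 reads. COP1 was at 4.55 log2 CPM per kilobase of the longest transcript. ATXN1L was at 3.37 and CIC at 1.72, while DET1 was at 0.78 and ATXN1 at 0.14 log2 CPM per kilobase. ETV5 and ETV4 were above all 5 on this scale, and ETV1 was above all but COP1. By coding length ATXN1L at 5.42 was above COP1 at 4.92, and ETV1 at 5.67 was then above both.

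Eph receptors bind ephrins, which are membrane-bound ligands on neighbouring cells. All 14 listed receptor genes had a read, and 10 had a mean of at least 10 reads. EPHA2 was the highest of them and made up 63.3% of the family's summed CPM per kilobase, or 52.9% by coding length. The next receptor gene, EPHA3, was at 2.74 log2 CPM per kilobase of the longest transcript, and EPHA2 was 5.43 times as high. EPHB4, EPHA7 and EPHB1 followed at 2.24, 1.62 and 1.23 log2 CPM per kilobase. EPHA4 was in the eighth place and made up 1.63% of the sum. By coding length EPHA4 was in the 7th place with 2.18% of the sum, and EPHB2 at 2.67 was above EPHB1 at 1.79. Of the 8 ephrin genes, 7 had at least 10 reads. EFNB2, whose product is known to bind EPHA4 besides the B-type receptors, was the highest ligand gene at 4.33 log2 CPM per kilobase. EFNA1, a main ligand of EPHA2, was at 2.80, and EFNA4, EFNA5 and EFNB1 were at 1.68, 1.30 and 0.95 log2 CPM per kilobase. By coding length EFNA5 at 4.27 was above EFNA1 at 4.14, and EFNB2 still led at 6.65.

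**Figure D4:**
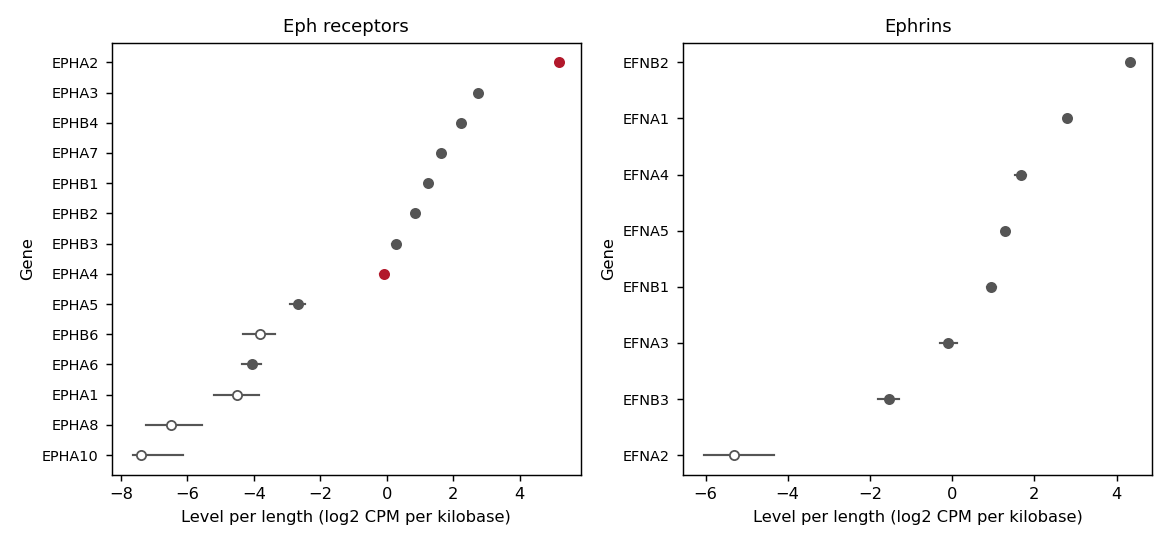
Level per kilobase of the longest transcript (horizontal axes, log2 CPM per kilobase) for the 14 Eph receptor genes (left) and the 8 ephrin genes (right), with members in red, open symbols for genes with a mean under 10 reads and lines for the 95% counting interval. EPHA2 at 5.19 stands clear of EPHA3 at 2.74, and EPHA4 is at −0.08.

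PHLDA1 likewise led its small family. Per kilobase of the longest transcript PHLDA3, a p53 target gene, was at 1.59 log2 CPM per kilobase, and PHLDA2, an imprinted gene of the placenta, was at the edge of detection with fewer than 1 implied read per library. PHLDA1 made up 93.1% of the family's summed CPM per kilobase and 90.2% by coding length.

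A set of 10 transcripts used together as a score of ERK pathway output holds 5 of the members, PHLDA1, ETV4, ETV5, EPHA2 and EPHA4, beside SPRY2, SPRY4, DUSP4, DUSP6 and CCND1. Sprouty and DUSP proteins restrain the pathway, and CCND1 encodes cyclin D1, which drives entry into the cell cycle. All 10 were expressed. Per kilobase of the longest transcript, PHLDA1, ETV5, EPHA2 and ETV4 were among the first 5, and CCND1 took the third place at 5.19, within counting error of EPHA2. SPRY2, DUSP6, DUSP4 and SPRY4 were at 4.40, 4.32, 3.99 and 3.84 log2 CPM per kilobase. EPHA4 was last, 15.2-fold below SPRY4. By coding length PHLDA1 still led and EPHA4 was still last, but CCND1 took the second place, 3.56 times as high as EPHA2, and ETV4 and EPHA2 moved to the eighth and the ninth place. ETV5 was in the third place on that scale.

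**Figure D5:**
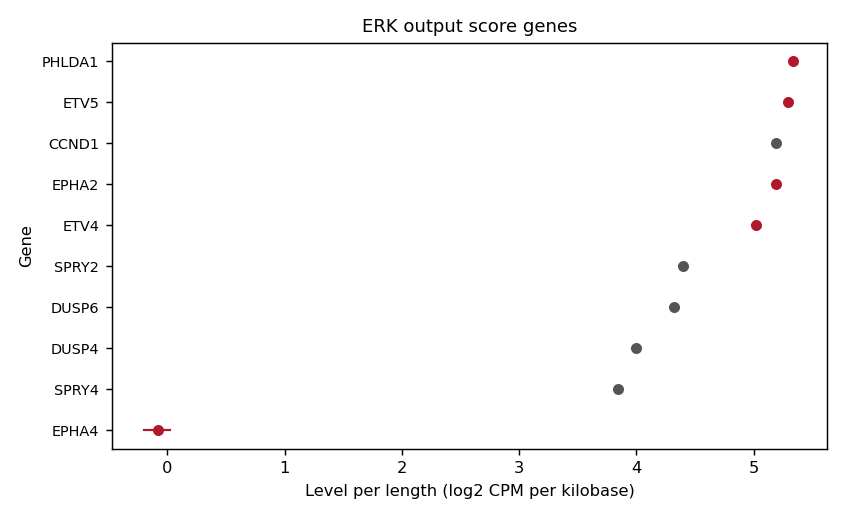
Level per kilobase of the longest transcript (horizontal axis, log2 CPM per kilobase) for the 10 ERK output genes, with members in red, other genes in grey and lines for the 95% counting interval. All genes except EPHA4, members included, lie between 3.84 and 5.33, while EPHA4 lies at −0.08.

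Kinase and GTPase genes listed with the RAS-ERK cascade were expressed as well. NRAS was at 5.67 log2 CPM per kilobase of the longest transcript, followed by RPS6KA3, which encodes the ERK-activated kinase RSK2, at 5.02. MAP2K1, which encodes MEK1, was at 4.78 log2 CPM per kilobase. HRAS was at −1.56 log2 CPM per kilobase. On this scale PHLDA1, ETV5 and EPHA2 lay between NRAS and RPS6KA3, while EPHA4 was below all of these except HRAS. These places depended on the length. By coding length RPS6KA3 at 6.87 was above ETV5 and EPHA2, and by the canonical transcript MAP2K1 at 5.71 was above NRAS at 5.67 log2 CPM per kilobase.

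Parts of some members are annotated as shared with other genes, and the use of strand in counting is not stated. PHLDA1 shares 9.35% of its exonic bases with the antisense RNA PHLDA1-AS1, the largest share among the members. ETV4 shares 1.94% with DHX8 on the opposite strand, which was at 7.44 log2 CPM, and ETV5 shares 2.84% with DGKG on the same strand, which was at 5.18 log2 CPM. ELK3 and EPHA4 share 4.5% and 4.67% with antisense RNAs that carry no symbol. EPHA2 and ETV1 share no exonic base with an annotated gene. The part of these overlaps in the levels was not tested.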

How the data were processed

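RNA from 6 A375 libraries was made into strand-specific libraries and sequenced in paired-end mode. Per the study's methods and the submitters' processing notes, the authors used HISAT2 2.1.0 for alignment to hg38, counted reads per gene with featureCounts 2.1.1 and fitted limma-voom 3.58.1. The deposited log2 values used here are the authors' mean of log2 CPM across the libraries of both groups, after voom's offset of 0.5 on each count. The table also holds the authors' own comparison of treated with control cells (fold change, t, p-value, adjusted p-value and log odds), which was not used. There was therefore no test between the groups. The lowest value was taken as 0 reads in every library, which gives the depth. Under it, all 4278 genes with a read and a product of (2 × count + 1) over the libraries below 1000 gave an odd whole number within 0.01. Implied reads are geometric means per library. Poisson intervals take the implied reads times 6 as the total. Positions and lengths come from GENCODE 44 on GRCh38, the assembly named hg38, which matched 25497 genes by Ensembl identifier. The authors' annotation may give other lengths. Every member is named, with up to the 5 highest genes per length of each list and all genes of lists of 5 or fewer. Some genes that meet this rule are not reported here. A gene named outside it was chosen after its value was seen. Members and lists were chosen with earlier results of these data known. Calculations used Python 3.11.15, pandas 2.3.3, numpy 2.4.6 and scipy 1.17.1.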

Additional observations from a re-analysis of the deposited data

How the results depend on the processing

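No paired analysis was possible because the values used pool both groups and all libraries. For the same reason the other scaling, pseudocount, filter and left-out replicates planned for OZO against OLO were not run, nor was the planned alignment of the members' proteins, for want of their sequences. The share of genes with a lower level depends on the genes counted. Over all genes it was 97.2% for PHLDA1, 95.1% for ETV5, 94.4% for EPHA2, 94.0% for ELK3, 88.8% for ETV4, 88.7% for ETV1 and 65.0% for EPHA4. Over genes with a read it was 96.2%, 93.5%, 92.6%, 92.1%, 85.1%, 85.0% and 53.5% in the same order, and over genes that averaged 10 reads or more it was 94.1%, 89.9%, 88.5%, 87.7%, 76.9%, 76.7% and 27.8%. The order itself cannot change with these filters. Per kilobase of coding length, the levels were 7.63 for PHLDA1, 6.71 for ETV5, 5.62 for EPHA2, 6.80 for ELK3, 5.70 for ETV4, 5.67 for ETV1 and 1.02 for EPHA4 in log2 CPM per kilobase, since coding parts are shorter than transcripts. The canonical transcript, added after the data were seen, gave the same 7 values as the longest transcript. Levels carry counting error alone here, and how far 1 library decides a level was not tested.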
